A study of Mus musculus with 2 samples.

Results

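The axon guidance families comprise Eph receptors and ephrins, semaphorins and plexins, netrins with their receptors and the RGM proteins, and Slit ligands with Robo receptors. Members were chosen by gene symbol alone, from probe sets annotated with a single symbol (Epha, Ephb, Efna or Efnb with a digit, Sema with a digit and a letter, Plxn with a letter, Ntn with a digit, Ntng, Unc5 with a letter, Slit or Robo with a digit, and Dcc, Neo1, Rgma and Rgmb). This gave 72 of the 18193 genes on the arrays, read by 162 probe sets. Unc50 was not counted, since its symbol stands for a different gene.

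The 2 groups were a culture at day 12 and a culture at day 5 of osteoblast differentiation. Both were primary cells from skull roof bones of newborn mice, depleted of cells with CD11b (a myeloid surface protein) and grown with 50 µg/ml ascorbic acid and 10 mM β-glycerophosphate, which permit collagen secretion and mineral deposition. Strain, sex and genotype are not given in the sources used here. The cultures are mixed primary populations rather than a clone, and each day was read on 1 Affymetrix array, so no value below has a replicate error, a test or a p-value, and the day cannot be told apart from differences between the cultures or arrays.

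These families were named for steering axons, and they also act between other neighbouring cells. Ephrins are bound to the membrane of one cell and bind Eph receptor tyrosine kinases on the next, and both sides can signal. Class 3 semaphorins are secreted and bind neuropilins paired with plexins, while most other semaphorins sit in the membrane and bind plexins directly. In bone, ephrin-B2 with EphB4, semaphorin 3A and semaphorin 4D are known for exchanges between osteoblasts, osteoclasts and nerve or vessel cells. RGM proteins bind neogenin, the product of Neo1, and also act as BMP coreceptors.

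Signals are the deposited MAS5 intensities on a linear scale, scaled by the authors to the same trimmed mean on both arrays. A floor at the 60th percentile of each array, with 44.8 on the day 12 array and 46.6 on the day 5 array, marked values too low to read. A gene was called measured if its probe set of highest mean log2 signal reached the floor on at least 1 array, and log2 ratios are day 12 over day 5 with lower values raised to the floor. A ratio with 1 day below the floor is therefore a bound, written "at least". Passing 2-fold upward means a signal at least 2-fold higher at day 12, and downward means one at least 2-fold lower. Brightness depends on the probe, so signals of different genes are not ranked. Markers of the named cell type were present, since all 7 osteoblast markers analysed were measured. Runx2, Bglap and Spp1, also on the list of 10, had no probe set with a single symbol and were not analysed. Of the 7 analysed, 4 passed 2-fold upward, among them Ibsp (9.41-fold) and Alpl (4.90-fold). Summed over all 7, the signals were 60574 at day 12 and 36817 at day 5. Of 6 osteocyte markers 4 were measured and 3 passed 2-fold upward, Dmp1 (20.2-fold), Phex (at least 11.9-fold) and Mepe (at least 6.47-fold). The fourth, Pdpn, was lower, with 1995 at day 12 and 3092 at day 5, a log2 ratio of -0.63. Summed over all 6, Pdpn included, the signals were 6006 at day 12 and 3296 at day 5. The markers past 2-fold upward moved with genes below that were higher at day 12, such as Sema3d, Sema5a and Nrp2. Their part in those was not tested. With 1 array per day, every higher marker moves with every higher gene, the myeloid markers below included. Which cell type a signal came from therefore cannot be told apart. Markers of other cells were present too. Of 8 muscle or pericyte markers 5 were measured, with 1 past 2-fold upward, Cspg4 (3.25-fold), and 0 downward. Of 5 adipocyte markers listed 4 were analysed. All 4 were measured, each with a ratio below 0 and none past 2-fold. Among 10 endothelial markers 2 were measured, neither past 2-fold. Esam read 48.8 at day 12 and 58.1 at day 5, and Egfl7 74.1 at day 12 and 55.2 at day 5. Pecam1, Cdh5, Kdr, Tek, Tie1, Emcn, Cldn5 and Vwf lay below the floor on both days. Of 10 neuronal markers 3 were measured (Tubb3, Stmn2 and Map2). Of 10 glial markers listed 8 were analysed and 3 measured (S100b, Mbp and Cdh19). Snap25 and Sox10 were among those below the floor on both days.

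Comparison of day 12 with day 5 asks how these genes differ as the cultures mature. Of the 72 members, 47 were measured, 41 of them on both arrays. At day 12, 3 of the 47 passed 2-fold upward and 4 downward, and 40 lay between. All but 2 of these 7 genes were semaphorins: Sema3d, Sema4d and Sema5a were higher, while Sema3e, Sema3c, the ephrin gene Efnb2 and the Eph receptor gene Epha7 were lower. These are 6.38% and 8.51% of the measured members, beside 3.56% upward and 1.73% downward over all 10479 genes measured. At a threshold of 1.5-fold, 8 of the 47 members stood upward and 11 of the 47 downward. Of the 10479 genes measured, 760 (7.25%) stood upward and 807 (7.7%) downward. The median log2 ratio was -0.07 for members and -0.05 for all measured genes, so the members as a whole did not lean to one day by this measure. Their ratios were wider, with a median size of 0.42 against 0.23 for all measured genes. Measured members also had lower signals, at a median of 7.36 for the mean log2 signal against 8.31 for all measured genes, and the part of that in the wider ratios was not tested. The 5th and 95th percentiles of all measured genes stood at log2 ratios of -0.69 and 0.78, and 9 members fell below the first and 4 above the second. In RNA from whole cultures, fewer cells of a type and less RNA per cell cannot be told apart.

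**Figure D1:**
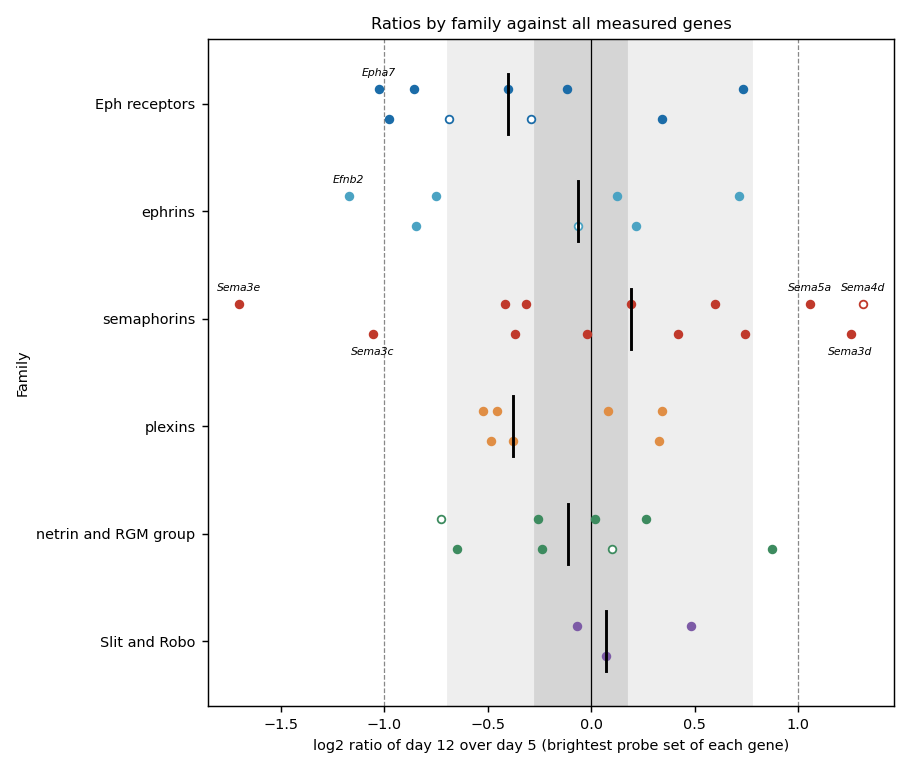
Log2 ratio of day 12 over day 5 for each measured member (1 point per gene, brightest probe set, 1 array per day) in 6 families; open points are bounds with 1 day below the floor, black bars are family medians, dashed lines mark 2-fold, and light and dark grey bands span the 5th to 95th and 25th to 75th percentiles of all measured genes. Semaphorins spread from -1.70 to 1.31, while plexins and the Slit and Robo genes lie within 2-fold.

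Semaphorins had the widest range of the 6 families. Of 20 genes, 13 were measured; 3 passed 2-fold upward, 2 downward and 8 lay between, with a median log2 ratio of 0.19 (-0.02 with the floor at the 75th percentile). The secreted class 3 genes went in both directions. Sema3d, which guides vessel and neural crest cells, read 1259 at day 12 and 528.0 at day 5 in its brightest probe set (2.38-fold higher). A further probe set read 365.7 at day 12 and 108.5 at day 5, a log2 ratio of 1.75. Both probe sets of Sema3d thus passed 2-fold in the same direction.

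Sema3e, whose product binds plexin-D1 without a neuropilin, read 137.7 at day 12 and 447.7 at day 5 (3.25-fold lower), the lowest ratio of any member. Its other measured probe sets had log2 ratios of -1.14, -0.79 and -0.17, where the last is a bound. All 4 probe sets of Sema3e were lower at day 12, but they differed in size, and their median of -0.97 was just short of 2-fold. Sema3c, a ligand of neuropilins known from heart outflow development, read 1610 at day 12 and 3348 at day 5 (2.08-fold lower). Another probe set of Sema3c read 203.5 at day 12 and 443.6 at day 5, a log2 ratio of -1.12, so both passed 2-fold.

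Sema3b, another secreted semaphorin, read 303.0 at day 12 and 180.7 at day 5, a log2 ratio of 0.75 that is short of 2-fold. Sema3a, a neuropilin-1 ligand known to protect bone by restraining osteoclasts, had 317.2 at day 12 and 410.2 at day 5. The log2 ratio of Sema3a was -0.37 in that probe set, -0.86 in the next and -0.23, a bound, in the third, none of them past 2-fold. Sema3f and Sema3g were below the floor on both days.

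Genes of the secreted class lie on mouse chromosome 5 in the order Sema3d, Sema3a, Sema3e, Sema3c. No protein-coding gene of the RefSeq table of GRCm38.p6 stands between Sema3d and Sema3a, 3 stand between Sema3a and Sema3e and 15 between Sema3e and Sema3c. Along the chromosome the first gene was higher at day 12 and the other 3 had ratios below 0, with log2 ratios of 1.25 for Sema3d, -0.37 for Sema3a, -1.70 for Sema3e and -1.06 for Sema3c. Their promoters are shown because they head neighbouring genes of one family, of which Sema3d was past 2-fold upward and Sema3e and Sema3c downward, and that of Efnb2 because it was the ephrin furthest from its day 5 signal. Each line gives the 250 bases before the RefSeq start, 5′ to 3′ on the gene's strand in GRCm38.p6. Capitals mark matches on either strand of ACGTG (the core of the hypoxia response element), TGTGGT (bound by Runx factors) or CANNTG (the E box of bHLH factors, which overlaps ACGTG in some cases).
Sema3d, chr5:12382916-12383165 (+ strand): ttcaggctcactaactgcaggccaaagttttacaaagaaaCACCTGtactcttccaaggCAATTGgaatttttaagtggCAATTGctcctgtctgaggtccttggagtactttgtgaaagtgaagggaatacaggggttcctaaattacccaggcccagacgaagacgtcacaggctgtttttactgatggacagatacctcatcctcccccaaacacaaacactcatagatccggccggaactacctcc
Sema3a, chr5:13396534-13396783 (+ strand): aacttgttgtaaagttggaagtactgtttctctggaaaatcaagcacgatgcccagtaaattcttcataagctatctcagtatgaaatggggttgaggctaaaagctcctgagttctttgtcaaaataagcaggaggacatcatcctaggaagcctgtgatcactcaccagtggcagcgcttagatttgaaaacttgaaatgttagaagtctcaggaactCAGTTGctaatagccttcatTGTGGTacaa
Sema3e, chr5:14025026-14025275 (+ strand): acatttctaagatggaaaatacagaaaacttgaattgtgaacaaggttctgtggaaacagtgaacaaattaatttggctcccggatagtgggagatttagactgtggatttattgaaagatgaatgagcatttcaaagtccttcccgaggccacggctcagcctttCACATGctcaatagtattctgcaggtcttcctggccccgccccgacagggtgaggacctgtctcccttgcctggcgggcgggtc
Sema3c, chr5:17574566-17574815 (+ strand): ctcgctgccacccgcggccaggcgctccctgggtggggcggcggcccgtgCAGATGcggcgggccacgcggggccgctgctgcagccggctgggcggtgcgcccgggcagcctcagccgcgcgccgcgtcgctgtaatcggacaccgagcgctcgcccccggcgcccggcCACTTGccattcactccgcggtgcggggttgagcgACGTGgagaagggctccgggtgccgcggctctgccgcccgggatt
Efnb2, chr8:8661243-8661492 (- strand): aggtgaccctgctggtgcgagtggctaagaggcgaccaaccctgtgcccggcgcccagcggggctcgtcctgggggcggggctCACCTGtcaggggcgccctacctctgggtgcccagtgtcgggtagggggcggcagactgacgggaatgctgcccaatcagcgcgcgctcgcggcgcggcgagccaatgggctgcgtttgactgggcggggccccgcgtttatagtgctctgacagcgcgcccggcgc
CANNTG was present in all 5 stretches, upward and downward genes alike. Sema3d held 3 matches to CANNTG and neither of the other motifs, and Sema3a held 1 match each to CANNTG and TGTGGT. Sema3e held 1 match to CANNTG, Sema3c 2 to CANNTG and 1 to ACGTG, and Efnb2 1 to CANNTG. Base composition set the promoters apart: GC content was 78.4% for Sema3c and 72.0% for Efnb2, against 46.8% for Sema3d, 48.0% for Sema3e and 40.8% for Sema3a. The 50 bases after the start, not shown, added 2 matches to ACGTG in Sema3e, 1 on each strand of a single site. Sema5a and Epha7 held none of the motifs in their windows. Every window of Sema4d held 1 match to CANNTG, and 1 window also held 1 match each to ACGTG and TGTGGT. RefSeq windows of 300 bases (250 before and 50 after the start) were found for 61 of the 72 members. ACGTG was present in 15 (18.75%) of their 80 windows, TGTGGT in 9 (11.25%) and CANNTG in 40 (50%), against 19.6%, 16.8% and 72.3% of all 32851 windows. A match is only a run of letters and says nothing here of binding.

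Of 8 measured membrane-bound semaphorins, 2 passed 2-fold upward and 0 downward, beside 3.56% upward and 1.73% downward over all measured genes. Sema4d, an osteoclast and lymphocyte product that restrains osteoblasts through plexin-B1, read 116.0 at day 12 against 37.7 at day 5, which is under the floor, for a bound of at least 2.49-fold. Only 1 of its 3 probe sets was measured. Like the osteoblast markers above, the myeloid markers moved with Sema4d: 9 of 10 were measured and all 9 passed 2-fold upward. Summed over all 10, the signals were 10996 at day 12 and 4502 at day 5. Itgam, the gene of CD11b itself, was below the floor on both days. Of 7 osteoclast markers, 3 were measured and none passed 2-fold: Ctsk read 4084 at day 12 and 3191 at day 5, Acp5 237.3 at day 12 and 279.3 at day 5, and Mmp9 76.2 at day 12 and 97.6 at day 5. Calcr, Oscar, Ocstamp and Dcstamp were below the floor on both days. The part of myeloid cells or osteoclasts in the Sema4d signal was not tested.

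Sema5a, whose product carries thrombospondin repeats, read 158.5 at day 12 and 76.0 at day 5 (2.09-fold higher). A second probe set gave 99.9 at day 12 and 58.9 at day 5, a log2 ratio of 0.76. Sema5a is thus near the threshold, and was less than 2-fold higher with a pseudocount (0.82) or with the median over its probe sets (0.91). Sema6c (0.60), Sema4b (0.42) and Sema7a (0.19), the last a lipid-anchored semaphorin that binds integrin β1 and plexin-C1, had higher signals at day 12. Sema6d (-0.02), Sema4f (-0.31) and Sema4c (-0.42) did not, and none of these 6 passed 2-fold. Sema4a, Sema4g, Sema5b, Sema6a and Sema6b were below the floor on both days.

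**Figure D2:**
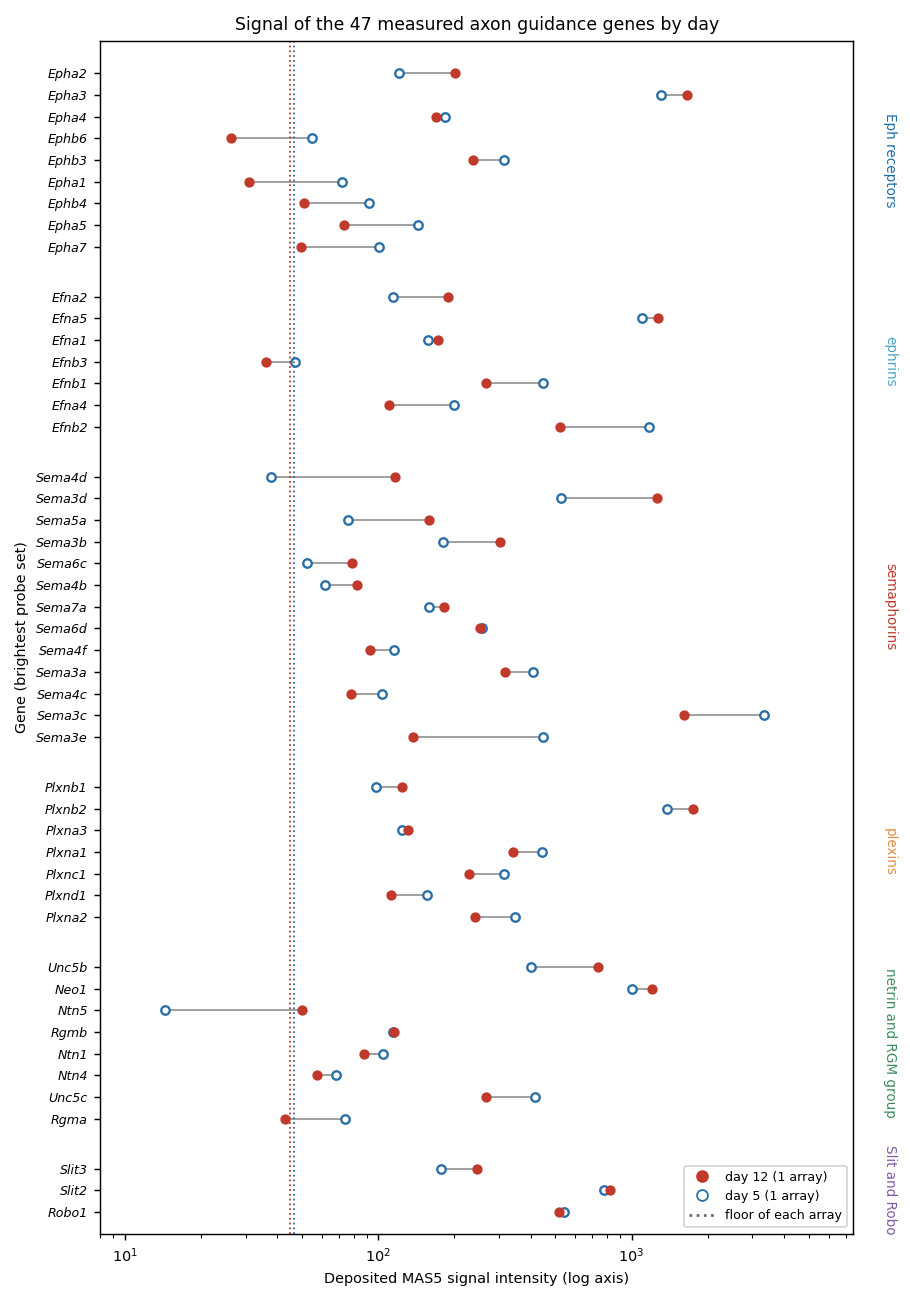
Deposited signal (log axis) of the brightest probe set of each of the 47 measured members at day 12 (filled red) and day 5 (open blue), 1 array per day, grouped by family and ordered by log2 ratio within it; dotted lines mark the floor of each array. Sema3d, Sema4d and Sema5a lie to the right at day 12, and Sema3e, Sema3c, Efnb2 and Epha7 to the left.

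Of 9 genes for plexins, the semaphorin receptors, 7 were measured and none passed 2-fold by its brightest probe set. Their log2 ratios had a median size of 0.38, against 0.23 for all measured genes. The median log2 ratio was -0.38 and stayed below 0 under every alternative tried. Plxna2 read 240.4 at day 12 and 345.9 at day 5, the lowest plexin ratio at -0.53. Of its other measured probe sets, 2 gave -0.44 and -0.52, but the fourth read 94.7 at day 12 and 218.4 at day 5, a log2 ratio of -1.21. All 4 probe sets of Plxna2 agreed in direction, and 1 of them passed 2-fold.

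Plxnd1, the receptor gene for semaphorin 3E, had 111.9 at day 12 and 156.4 at day 5, a log2 ratio of -0.48 in the same direction as its ligand. Plxnc1 had a log2 ratio of -0.46 and Plxna1 of -0.38. The receptor genes for semaphorin 4D had ratios above 0: Plxnb1 read 124.1 at day 12 and 97.9 at day 5 (0.34), and Plxnb2 had 1741 at day 12 and 1386 at day 5 (0.33). Plxna3 had a log2 ratio of 0.08. Plxna4 and Plxnb3 were below the floor on both days.

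The neuropilins, which complete the class 3 receptors, were read with 38 genes for semaphorin and plexin coreceptors and effectors. Nrp2 read 4778 at day 12 and 1942 at day 5 (2.46-fold higher), and the log2 ratios of its 3 measured probe sets ran from 1.21 to 1.45. Nrp1, the main coreceptor of semaphorin 3A, had 959.5 at day 12 and 1110 at day 5, a log2 ratio of -0.21. The paired coreceptors thus stood apart, with Nrp2 past 2-fold and Nrp1 near its day 5 signal. Of the 29 measured genes of this list, 4 passed 2-fold upward and none downward, with a median log2 ratio of 0.04. Besides Nrp2 these were Mical3, of a family of actin-oxidising enzymes (2.21-fold), Trem2 (at least 3.68-fold) and Tyrobp (4.38-fold). Trem2 and Tyrobp form a receptor complex of myeloid cells that can associate with plexin-A1, and Tyrobp is 1 of the 9 myeloid markers that were higher. Dpysl2, the collapsin response mediator that relays semaphorin signals to microtubules, had a log2 ratio of 0.14.

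Of 8 ephrin genes, 7 were measured, 1 passed 2-fold downward and none upward. Ephrin-B genes encode proteins that span the membrane. Efnb2 read 521.9 at day 12 and 1177 at day 5 (2.25-fold lower), and a further probe set gave 182.2 at day 12 and 380.8 at day 5, a log2 ratio of -1.06. Efnb1, known for its role in skull suture and face formation, had 266.9 at day 12 and 448.4 at day 5. Its log2 ratio was -0.75, with -0.50 and -0.42 in the others, so that Efnb1 was lower in every measured probe set and short of 2-fold in each. Efnb3 was close to the floor, with 35.9 at day 12 and 46.8 at day 5.

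Ephrin-A genes, whose products are tethered by a lipid anchor, ran both ways and none passed 2-fold. Efna2 read 188.7 at day 12 and 114.8 at day 5, a log2 ratio of 0.72, with a bound of 0.15 in its other measured probe set. Efna4 lay at the other end, with 110.5 at day 12 and 198.5 at day 5 (-0.84) in its only probe set. Efna5 had 1277 at day 12 and 1098 at day 5 (0.22), Efna1 had a log2 ratio of 0.13, and Efna3 was below the floor on both days. The median log2 ratio over the 7 ephrins was -0.06, and was above 0 after loess and without probe sets of shared sequence (0.03 each).

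Of 13 Eph receptor genes, 9 were measured. A ratio below 0 was found for 7 of them, beside 5915 of the 10479 measured genes, and 1 of the 7 passed 2-fold downward, while the median log2 ratio was -0.40 (0.036 with the floor at the 75th percentile). Epha7 read 49.5 at day 12, just above the floor, and 101.0 at day 5 (2.04-fold lower). A second probe set of Epha7 gave a bound of -0.46, and Epha7 was short of 2-fold under 4 of the 7 alternative settings that gave it a value (log2 ratios of -0.71 to -0.98), and not measured with the floor at the 75th percentile. Epha5 had 73.1 at day 12 and 143.9 at day 5 (-0.98), and its other measured probe set gave at least 2.0-fold, from 42.1 at day 12 and 89.6 at day 5. Epha5 and Epha7 thus sit at the 2-fold line from low signals.

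Ephb4, the receptor gene for ephrin-B2, had 50.9 at day 12 and 92.2 at day 5, a log2 ratio of -0.86. With that limit, the pair Efnb2 and Ephb4 was lower at day 12 on both sides, with the receptor short of 2-fold. Ephb3 had 237.8 at day 12 and 314.0 at day 5 (-0.40). Epha1 and Ephb6 gave bounds of -0.69 and -0.29, from below the floor at day 12.

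In the other direction Epha2, a receptor for ephrin-A ligands that has been tied to osteoclast and osteoblast exchange, had 200.1 at day 12 and 120.5 at day 5, a log2 ratio of 0.73 in its only probe set. Epha3 had 1663 at day 12 and 1312 at day 5 (0.34), and its 4 measured probe sets ran from -0.05 to 0.49. Epha4 had 169.1 at day 12 and 183.7 at day 5 (-0.12), with probe sets from -0.43 to 0.26. No direction can be read for Epha4. Epha6, Epha8, Epha10 and Ephb1 were below the floor on both days. Of 27 measured Eph and ephrin effectors, 1 passed 2-fold upward and none downward, with a median log2 ratio of 0.02. That gene was Ngef (ephexin), an exchange factor for small GTPases bound by EphA receptors, which read 130.5 at day 12 against 32.7 at day 5, under the floor (at least 2.80-fold higher).

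**Figure D3:**
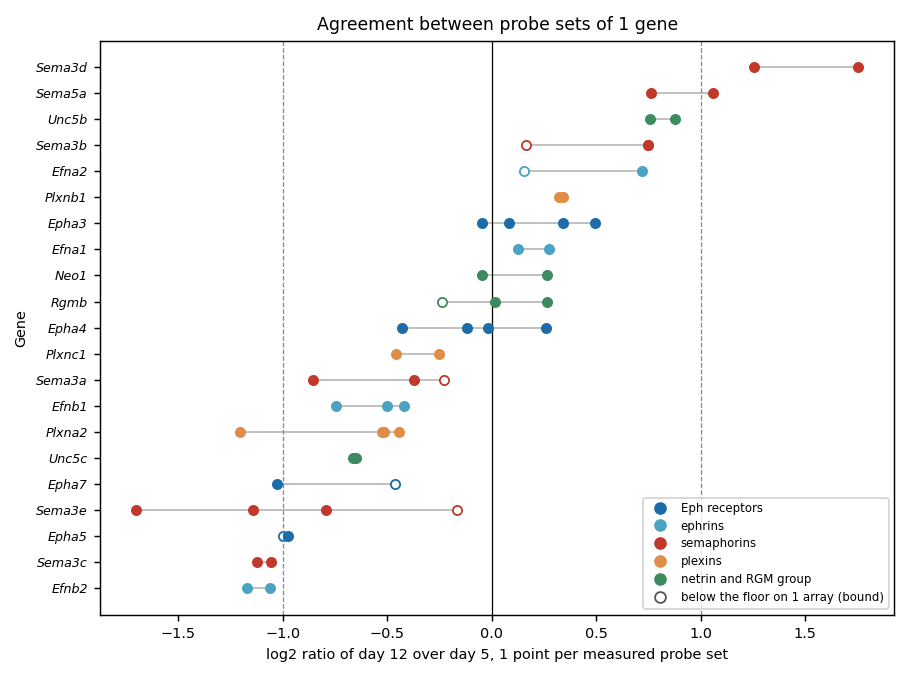
Log2 ratio of day 12 over day 5 of each measured probe set (1 point each) for the 21 members with 2 or more, coloured by family, with a grey line from lowest to highest; open points are bounds and dashed lines mark 2-fold. Sema3d, Sema3c and Efnb2 have every point past 2-fold, while the points of Epha3, Epha4, Neo1 and Rgmb lie on both sides of 0.

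Several probe sets for 1 gene are the only repeat measurement here, and they cover probe error but not differences between cultures. In 17 of the 21 members with 2 or more measured probe sets all of them had the same sign. The 2 brightest probe sets of a member differed by a median of 0.15 in the log2 ratio, and the SD of a single probe set around its gene was 0.21 over these 21 members and 0.24 over 4446 genes. The probe sets of Sema3e were more scattered than that.

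The 2 measured netrin receptor genes of the Unc5 family differed in direction, both short of 2-fold. Unc5b, a netrin receptor known from vessel branching, read 737.2 at day 12 and 402.1 at day 5, a log2 ratio of 0.87, with 0.76 in its second probe set. Unc5c, of the same family, had 265.7 at day 12 and 417.0 at day 5 (-0.65), with -0.66 in the other. Each gene's probe sets agreed closely and neither gene passed 2-fold. Unc5a, Unc5d, Dcc and Unc5cl were below the floor on both days.

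Netrin genes had low signals or lay below the floor. Ntn1 had 88.2 at day 12 and 104.2 at day 5 (-0.24), and Ntn4, a laminin-binding netrin, had 57.1 at day 12 and 68.3 at day 5 (-0.26). Ntn5 gave a bound of 0.10, from 50.0 at day 12 and 14.4 at day 5. Ntn3, Ntng1 and Ntng2 were below the floor on both days.

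Neogenin and Rgmb were close to their day 5 signals, and Rgma was lower at day 12 by a bound. Neo1 had 1207 at day 12 and 1006 at day 5 (0.26), with -0.05 in its second measured probe set. Rgmb had 115.9 at day 12 and 114.5 at day 5 (0.02), and its other measured probe sets gave 0.26 and a bound of -0.24. Rgma was at or above the floor only at day 5, with 42.9 at day 12 and 74.1 at day 5, a bound of -0.73 (at least 1.65-fold lower). Over all 8 measured genes of the netrin and RGM group the median log2 ratio was -0.11, and was 0.02 and 0.26 with the floor at the 50th and 75th percentile.

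Among 16 measured netrin and RGM partners, 2 passed 2-fold upward and none downward, with a median log2 ratio of -0.02. They were Elmo1, an adaptor for Rac activation that is also used in engulfment by phagocytes (269.6 at day 12 against 45.9 at day 5, under the floor, at least 5.78-fold), and Bmp2, an RGM-bound growth factor (2.14-fold). Elmo1 moved with the same 9 myeloid markers, as did every other gene higher at day 12, and their part in it was not tested. Flrt2, a membrane ligand of Unc5 receptors, had 1243 at day 12 and 2070.4 at day 5 (-0.74), with 3 measured probe sets from -1.24 to -0.73.

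Slit ligands and Robo receptors differed little between the days. Only 3 of 7 genes were measured, and none differed by 2-fold. Slit2 had 820.1 at day 12 and 780.9 at day 5 (0.07), and its receptor gene Robo1 had 515.8 at day 12 and 541.1 at day 5 (-0.07). Slit3, which has been described as an osteoblast and osteoclast product acting on bone vessels, had 246.1 at day 12 and 176.2 at day 5 (0.48). Robo4, the Robo of endothelial cells, was below the floor on both days, with 10.3 at day 12 and 4.76 at day 5, as were Slit1, Robo2 and Robo3. Of 19 measured Slit and Robo effectors, 2 passed 2-fold upward and none downward (median 0.05). Both were heparan sulphate proteoglycans, a class that Slits need to bind Robo: Sdc3, with 1623 at day 12 and 699.2 at day 5 (2.32-fold), and Gpc1, with 3567 at day 12 and 1623 at day 5 (2.20-fold). Sdc1, another syndecan, had a log2 ratio of -0.69.

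**Figure D4:**
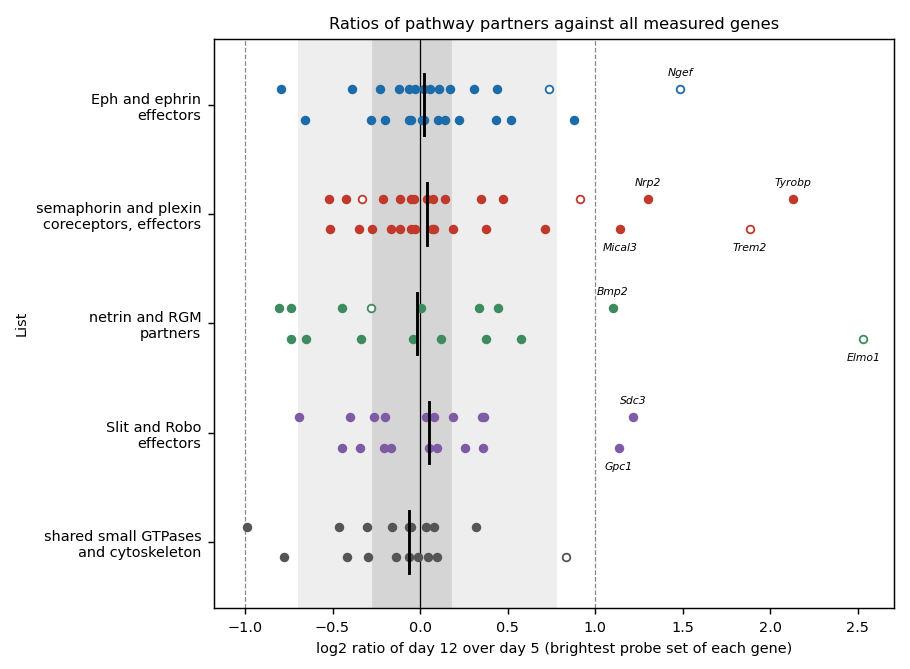
Log2 ratio of day 12 over day 5 for measured pathway partners in 5 lists (1 point per gene, brightest probe set, 1 array per day), drawn as for the families, with the grey bands again spanning all measured genes. The 9 genes past 2-fold are named and all lie on the day 12 side, while the list medians stay between -0.06 and 0.05.

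Taking each partner once, 108 of 131 were measured, of which 9 (8.33%) passed 2-fold upward and 0 downward, read against 3.56% and 1.73% of all measured genes. The counts of each partner list above stand beside the same shares of all measured genes. These lists were chosen with earlier results of these data known, so the shares only describe the lists and are no independent comparison. Small GTPase and cytoskeletal genes, on which all these receptors converge, held none of the 9. Of 18 measured, Rhob, a rapidly induced small GTPase, was lowest, with 541.9 at day 12 and 1074 at day 5, a log2 ratio of -0.99. The core members Rhoa (0.03), Rac1 (-0.06) and Cdc42 (0.10) were close to their day 5 signal.

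By role, 27 of 39 ligand genes were measured, with 3 (11.1%) past 2-fold upward and 3 (11.1%) downward. Among receptor genes, 20 of 33 were measured, with 0 higher and 1 (5%) lower (Epha7). The shares over all measured genes were 3.56% upward and 1.73% downward. The median log2 ratio was 0.02 for ligands and -0.33 for receptors. A ratio below 0 was found for 13 of 20 receptor genes, near the share over all measured genes (5915 of 10479).

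Cartilage markers moved with the genes that were lower, as did the 4 adipocyte markers, with a median log2 ratio of -0.64. Of 10 chondrocyte markers 9 were measured, all with a ratio below 0 and 6 past 2-fold downward, and their summed signal was 13341 at day 12 and 33801 at day 5. Col10a1 was below the floor on both days. Some neural and glial genes that other cells also express differed as well: Stmn2 had 155.1 at day 12 and 336.6 at day 5, S100b, also a chondrocyte gene, had 590.4 at day 12 and 1290 at day 5, and Tubb3 had 139.4 at day 12 and 58.5 at day 5. The part of cartilage cells or adipocytes in the lower signals of Sema3c, Sema3e, Efnb2, Epha5 and Epha7 was not tested.

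The 25 members below the floor on both days had signals of at most 39.9 at day 12 and 46.3 at day 5, with medians of 10.7 at day 12 and 9.21 at day 5. They cover parts of every family, and a low signal on these arrays does not show that the transcript was absent.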

How the data were processed

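Each of the 2 samples was hybridised to 1 Affymetrix array after biotin labelling of cRNA made from 5 µg of total RNA, per the labels' protocols. The authors deposited MAS5 signal intensity for 45101 probe sets, with GCOS 1.4 and MAS5 named in the submitters' processing notes and no further settings. Deposited intensities were used without further normalisation. Equal trimmed means show that each array was scaled to 1 target, so a change in total RNA per cell cannot be seen. No genome build is stated for the probe annotation in the sources used.

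Of 45037 probe sets other than 64 controls, 34945 had 1 gene symbol, 932 several and 9160 none; only the first were named, 34741 through their Entrez number in RefSeq's GRCm38.p6 table. Probe sets of paralogs can cross-hybridise. Promoters came from RefSeq (GRCm38.p6).

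Floor, threshold and measured genes are as defined in the report, and 1 array per day limits the precision of every value. Genes named are those past 2-fold in any measured probe set, the highest and lowest ratio of each family, its member of highest signal (used only to pick a name, not to rank levels), and members whose probe sets disagree in sign by at least 0.5. Partner genes named are those past 2-fold and the largest ratio of each list. Nrp1, Dpysl2, Flrt2, Sdc1, Rhoa, Rac1 and Cdc42, and the other members given with values, were chosen after their values were seen. The members and lists were chosen with earlier results of these data known. Alternatives were median centring, quantile normalisation, loess, a pseudocount of 32, a floor at the 50th or the 75th percentile, the median over probe sets, omission of IDs ending in _s_at, _x_at or _a_at (shared sequence), and thresholds of 1.5-fold or 3-fold. Planted changes on simulated arrays tested the code. Python 3.11.15, numpy 2.4.6, pandas 2.3.3 and statsmodels 0.14.6 were used.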

Additional observations from a re-analysis of the deposited data

How the results depend on the processing

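No paired analysis was possible because each day had 1 array. The count of members at least 2-fold higher at day 12 was 3 of 47 as reported, against 3.56% of all measured genes. It was 1 of 26 with the floor at the 75th percentile, against 3.03%, and 4 of 55 with the floor at the 50th percentile, against 4.19%. Counting the latter, it was between 2 and 4 under the other 7 settings, with 41 to 55 members measured. The shares of all measured genes under these 7 ran from 3.3% to 4.19%. The count at least 2-fold lower was 4 of 47 as reported, against 1.73% of all measured genes. It was 7 of 55 with the floor at the 50th percentile, against 2.44%, and 2 of 47 with the median over probe sets, against 1.59%. Under the others it was 3 or 4, with 26 to 47 members measured, against 1.005% to 1.89% of all measured genes. The lowest of these shares came with the floor at the 75th percentile, where 3 of 26 members were lower. Sema3d, Sema3c and Efnb2 passed 2-fold under all 8 settings, and Sema3e under all but the median over probe sets (-0.97). With a threshold of 1.5-fold, 8 of 47 members were higher and 11 of 47 lower, against 760 (7.25%) and 807 (7.7%) of 10479 measured genes. With 3-fold 0 of 47 were higher and 1 lower (Sema3e), against 175 (1.67%) and 36 (0.34%) of the 10479. With the floor at the 75th percentile 5 partners were higher. The number of partners measured with that floor was not counted, so no share can be set beside the 3.03% of all measured genes. Of the 108 partners measured with the main floor, 14 were higher at 1.5-fold and 3 at 3-fold, against 7.25% and 1.67% of all measured genes. At 1.5-fold 9 of the 108 were lower, against 7.7%. A higher floor leaves 26 members. With it the median of the Eph receptors was 0.036, that of the netrin and RGM group 0.26 and that of the semaphorins -0.02, a reversal of sign in each. With the lower floor Epha1 (-1.22), Ephb6 (-1.06) and Ntn5 (1.35) also passed 2-fold, since their lower value was no longer raised as far, as did Sema3f, measured only with that floor. No other cause of a change was tested. Medians were called moved when they shifted by more than 0.24, the SD of 1 probe set. Signals near the floor limit Epha5, Epha7, Ephb4, Sema4d and the netrins.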
